A study of Mus musculus with 12 samples.

Results

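The de novo lipogenesis genes were 10 rows of the liver RNA-seq count table, taken by their symbols from the 25611 genes listed: Srebf1, Mlxipl, Thrsp, Acly, Acaca, Fasn, Scd1, Elovl6, Me1 and Pnpla3. All 10 were found, each in a single row, and all 10 passed the low-count filter that left 13190 genes for testing. They were followed in the whole livers of 12 male C57BL/6J mice aged 8 to 10 weeks, in 3 groups of 4 mice. Sham mice had the abdominal incision only, and CLP mice had the cecum ligated and punctured, which gives polymicrobial sepsis. CLP+DCA mice had the same ligation and puncture and were injected with dichloroacetate (DCA) at 25 mg/kg 24 hr after surgery. All livers were taken at 30 hr, 6 hr after the time of injection. The labels list an injection 24 hr after surgery for the mice of all 3 groups. What the sham and CLP mice were injected with, such as a vehicle, is not given in the sources used here. Sham mice given DCA were not analysed here.

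De novo lipogenesis is the making of fatty acids from carbohydrate, and the liver is one of its main sites. Citrate leaves the mitochondria and is split by Acly into acetyl-CoA, Acaca carboxylates this to malonyl-CoA, and Fasn builds palmitate from both with NADPH that Me1 and the pentose phosphate pathway supply. Elovl6 lengthens palmitate to stearate, and Scd1 puts a double bond into both products, giving palmitoleate and oleate. The genes are switched on after a carbohydrate meal by SREBP1c, a product of Srebf1 that answers to insulin, and by ChREBP, the product of Mlxipl that answers to glucose. Thrsp encodes a small nuclear and cytosolic protein that favours lipogenesis, and Pnpla3 a lipid droplet protein whose gene is a known target of both factors. DCA inhibits the pyruvate dehydrogenase kinases, so that more pyruvate can be turned into acetyl-CoA within the mitochondria.

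The libraries held 24436513 to 44266819 counted reads each. Hnf4a, a defining transcription factor of hepatocytes, lay between 635 and 808 CPM (read counts scaled to the TMM-normalised library size) in all 12 mice. Of 14 hepatocyte markers, of which Hnf4a is one, 11 had a lower mean in CLP than in sham and 1 was called, Alb (log2 fold change -1.11, adjusted p = 0.0463), and their median log2 fold change was -0.61. Summed over the 14 the level was 93591 to 115035 CPM in sham, 76466 to 91866 in CLP and 77736 to 90119 in CLP+DCA. Markers of neutrophils, 12 genes, summed to 6.46 to 9.30 CPM in sham, 32.2 to 46.2 in CLP and 6.77 to 61.4 in CLP+DCA. Of 13 stellate cell and cholangiocyte markers, 12 had a higher mean in CLP, with 0 called and a median log2 fold change of 1.39, and their sum was 72.6 to 94.6 CPM in sham, 133 to 389 in CLP and 78.9 to 305 in CLP+DCA. Whole liver was sequenced, so that fewer cells of a type and less RNA per cell cannot be told apart. The library of CLP+DCA replicate 3 stood apart from its group on the first principal component of all tested genes, at 82.6 against -28.9 to -16.4 in the other 3 CLP+DCA mice, and 35.7% of its reads were on acute phase genes against 17.3% to 21.2%. Sham mice lay between -40.6 and -33.1 on this component and CLP mice between 8.66 and 72.8. On the second component CLP replicate 3 stood at -52.9, against -15.8 to 6.82 in the other CLP mice. Results of the CLP+DCA group for most of the 10 genes, and some counts of the pathway lists, are therefore given with and without CLP+DCA replicate 3.

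The bases just upstream of the annotated starts are shown for both transcription factor genes and for the 2 genes, Thrsp and Fasn, that carried paired CCAAT boxes there and whose fold changes after CLP were far apart. They are the 250 bases before the start that the count table gives, read 5′ to 3′ on the strand of the gene from RefSeq on GRCm38.p6, the assembly that is also called mm10. Capitals mark the matches to the motifs searched, which were the NF-Y box CCAAT, the E-box CACGTG to which ChREBP and SREBP bind, and the sterol regulatory element in its short form TCACNCCAC, all on both strands.
Thrsp, minus strand, chr7:97417551-97417800: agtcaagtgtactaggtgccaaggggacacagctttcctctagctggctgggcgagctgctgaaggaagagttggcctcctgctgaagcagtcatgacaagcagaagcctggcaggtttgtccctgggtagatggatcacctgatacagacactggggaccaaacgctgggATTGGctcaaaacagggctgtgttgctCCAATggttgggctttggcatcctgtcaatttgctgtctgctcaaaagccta
Fasn, minus strand, chr11:120824548-120824797: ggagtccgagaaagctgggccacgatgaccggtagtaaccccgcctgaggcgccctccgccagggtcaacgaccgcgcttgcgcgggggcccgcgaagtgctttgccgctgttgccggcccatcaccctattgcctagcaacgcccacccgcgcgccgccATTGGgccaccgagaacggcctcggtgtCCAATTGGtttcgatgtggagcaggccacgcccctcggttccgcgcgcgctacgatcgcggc
Srebf1, minus strand, chr11:60220628-60220877: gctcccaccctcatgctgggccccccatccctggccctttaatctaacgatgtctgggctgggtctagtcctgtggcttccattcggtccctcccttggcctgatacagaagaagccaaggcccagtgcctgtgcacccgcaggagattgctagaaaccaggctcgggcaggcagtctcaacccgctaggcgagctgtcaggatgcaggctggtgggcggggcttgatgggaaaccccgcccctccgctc
Mlxipl, plus strand, chr5:135106641-135106890: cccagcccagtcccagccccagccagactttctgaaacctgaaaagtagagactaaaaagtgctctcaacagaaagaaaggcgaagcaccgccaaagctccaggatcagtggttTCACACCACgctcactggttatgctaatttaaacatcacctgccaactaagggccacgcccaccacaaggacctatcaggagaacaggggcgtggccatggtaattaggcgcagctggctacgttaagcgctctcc

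Thrsp held CCAAT boxes at 79 and 52 bases before its start, in opposite orientations. Fasn held 3 of them, at 90, 62 and 59 bases before its start, of which the last 2 overlap in opposite orientations. The Mlxipl stretch held a match to TCACNCCAC 136 bases before the start. The Srebf1 stretch held none of these motifs but had GGGCGG, the Sp1 box, at 36 and 14 bases before the start (left in lower case). Both other starts of Srebf1, at chr11:60222581 and chr11:60210471, had a CCAAT box, at 166 and at 30 bases before them. Which start gives SREBP1c was not examined here, so that the stretch shown is not to be read as its promoter. Promoter windows of 300 bases, 250 before and 50 after a start, were found for 9 of the 10 genes, in 13 windows since Srebf1, Mlxipl and Me1 have several starts. The gene without a window was Scd1. A CCAAT box lay in 8 of the 13 windows, against 37.4% of all 32544 windows in the mouse table, and in 4 of the 9 at the starts that the count table gives, those of Thrsp, Fasn, Acly and Pnpla3. GGGCGG lay in 6 of the 13, against 35.9%, and in 4 of the 9. CACGTG was found in 1 window, 98 bases before another start of Mlxipl, against 7.17% of all windows, and TCACNCCAC in the 1 window of Mlxipl shown, against 1.24%. Neither the classical sterol regulatory element of the LDL receptor gene (0.0922% of all windows) nor the direct repeat bound by LXR (0.0154%) matched in any of the 13. A match of letters is not a binding site, and the absence of a match says only that the letters are not in these windows.

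In sham livers, Scd1 was by far the most abundant of the 10 transcripts per length, at 435 ± 197 CPM per kb of exon (SD, n = 4). Srebf1 (59.6 ± 3.90), Mlxipl (55.9 ± 6.11) and Thrsp (45.4 ± 13.1 CPM per kb) followed, and these 3 neighbours differed by less than the sum of their SDs. Acly stood at 35.9 ± 6.16, Me1 at 27.9 ± 4.02 and Fasn at 24.1 ± 2.48 CPM per kb, again each within the spread of the next. Elovl6 (6.86 ± 0.323) and Acaca (3.21 ± 0.265 CPM per kb) were lower, and Pnpla3 was close to the limit of detection at 0.306 ± 0.262. In CLP livers the level of Scd1 was 67.9 ± 50.1 CPM per kb, still the highest, and Acly (24.9 ± 3.20), Mlxipl (24.5 ± 9.99), Me1 (22.1 ± 3.00), Fasn (16.5 ± 3.96) and Srebf1 (15.5 ± 7.08) lay close together. Thrsp, at 6.73 ± 2.67 CPM per kb, had moved from among the transcription factors to beside Elovl6 (5.32 ± 1.17).

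The comparison of CLP with sham asked what sepsis did to the pathway. Srebf1, Thrsp and Scd1 fell in the septic livers, by 3.84-fold to 6.71-fold. The enzymes that make palmitate, Acly, Acaca and Fasn, differed by less than 1.5-fold, and none of these 3 passed the test. Lower calls at a Benjamini-Hochberg FDR of 0.05 in edgeR's quasi-likelihood test were made for 3 of the 10 genes, against 1.14% of all genes tested, and higher calls for none, against 1.64%. At an unadjusted p under 0.05, 7 of the 10 were lower, against 13.1% of all genes, and in 6 of the 10 every CLP mouse was below every sham mouse, against 14.2%. The median log2 fold change over the 10 was -0.54, beside 0.02 over all genes tested and -0.61 over the 14 hepatocyte markers.

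**Figure D1:**
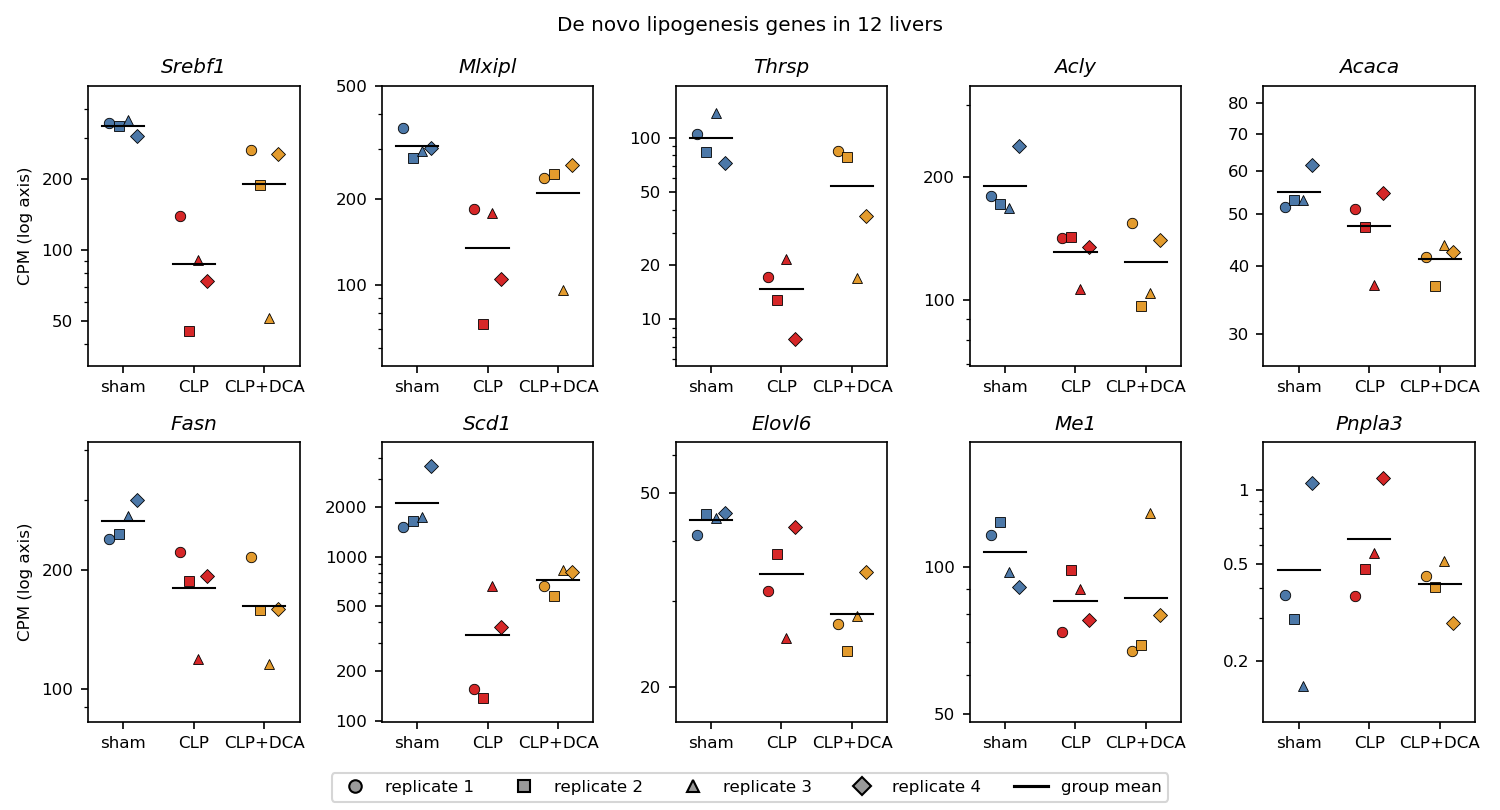
CPM of each of the 10 genes (log axis, its range set for each gene) in 4 sham, 4 CLP and 4 CLP+DCA livers, with the replicate number as the symbol and the group mean as a line. Srebf1, Mlxipl, Thrsp and Scd1 are set apart between sham and CLP, and CLP+DCA replicate 3 (triangle) lies with the CLP mice for the first 3 of these and not for Scd1.

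Srebf1 (NCBI Gene 20787, chr11:60199084-60220627, minus strand), from which SREBP1c is made, stood at 346, 337, 356 and 305 CPM in the 4 sham mice. In the CLP mice it stood at 140.3, 45.2, 90.8 and 73.9 CPM. The highest CLP mouse was thus below the lowest sham mouse by more than 2-fold, and the sham mice were much more alike (CV 6.54%) than the CLP mice (CV 45.5%). The means were 336 ± 22.0 and 87.6 ± 39.9 CPM (SD, n = 4 each), a fall by 3.84-fold (log2 fold change -1.94 with a standard error of 0.45, and an adjusted p of 0.0475 in edgeR's test). Rai1 overlaps Srebf1 on the other strand, and the setting for strand in the authors' counting is not given in the sources used here. Rai1 was counted with at most 715 reads in a mouse, against 945 to 13619 reads on Srebf1.

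Mlxipl (NCBI Gene 58805, chr5:135106891-135138382, plus strand), the ChREBP gene, had 358, 280.1, 295 and 304 CPM in sham. In CLP it had 185, 72.9, 179 and 105 CPM. The groups did not overlap, and CLP replicates 2 and 4, the lowest for Mlxipl, were also the lowest for Srebf1. The means were 309 ± 33.8 and 135 ± 55.3 CPM, 2.28-fold apart, and the log2 difference of -1.19 (standard error 0.34) missed the threshold at an adjusted p of 0.0695.

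Thrsp (NCBI Gene 21835, chr7:97412933-97417550, minus strand) and Scd1 had the lowest ratios of CLP to sham among the 10, and their 95% intervals overlapped nearly throughout. Thrsp stood at 104, 83.1, 137 and 72.7 CPM in sham, and at 17.0, 12.7, 21.4 and 7.77 CPM in CLP. The groups were far apart, and the 4 CLP mice were within 2.76-fold of each other. The fall was 6.71-fold, or -2.75 on the log2 scale (95% interval -3.80 to -1.69, standard error 0.48, adjusted p = 0.0255). 173 to 887 reads per CLP mouse lay behind these values.

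Scd1 (NCBI Gene 20249, chr19:44394450-44407709, minus strand), the stearoyl-CoA desaturase of liver, was measured at 1525, 1663, 1758 and 3565 CPM in sham. In CLP it was measured at 156, 138, 663 and 372 CPM. The groups did not overlap, but both were wide, with sham replicate 4 far above the other 3 sham mice and CLP replicates 1 and 2 far below the other 2 CLP mice. The fall of the mean was 6.41-fold, or -2.68 on the log2 scale (95% interval -3.75 to -1.61, standard error 0.49, adjusted p = 0.0275). Of 100-base windows along its transcript, 2.66% are shared with transcripts of Scd2, Scd3 and Scd4, or of another locus, and the other Scd genes were counted at under 10 CPM in every mouse.

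Acly, Acaca and Fasn, the cytosolic route from citrate to palmitate, were measured at 1.15-fold to 1.47-fold lower means in CLP. Fasn (NCBI Gene 14104, chr11:120805958-120824547, minus strand) had 239, 246, 273 and 299 CPM in sham and 222, 187, 119 and 192 CPM in CLP, so that the groups were separate but close. Its log2 fold change was -0.55 (standard error 0.21, adjusted p = 0.117). Acly (NCBI Gene 104112, chr11:100476352-100528000, minus strand) had 180.0, 172, 168 and 238 CPM in sham and 142, 143, 107 and 135 CPM in CLP. These groups did not overlap either, and the log2 fold change was -0.53 (standard error 0.17, adjusted p = 0.0887). Acaca (NCBI Gene 107476, chr11:84195438-84401651, plus strand) had 51.4 to 61.4 CPM in sham and 36.9 to 54.6 CPM in CLP, which overlapped, and the log2 difference was -0.21 (standard error 0.12, adjusted p = 0.255). For Acaca, 42.8% of the 100-base windows of its transcript also occur in that of the pseudogene Gm5182, which was not analysed here, so that its level depends on how shared reads were counted.

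Elovl6 (NCBI Gene 170439, chr3:129532386-129638493, plus strand), the palmitate elongase, had 41.1, 45.5, 44.5 and 45.5 CPM in sham, a CV of 4.70%. In CLP it had 31.6, 37.6, 25.2 and 42.6 CPM, of which only replicate 4 reached the range of sham. The log2 fold change was -0.37 (standard error 0.15, adjusted p = 0.142). Me1 (NCBI Gene 17436, chr9:86581363-86695914, minus strand), the cytosolic malic enzyme, had 90.8 to 124 CPM in sham and 73.5 to 98.8 CPM in CLP, with overlap, and a log2 difference of -0.33 (standard error 0.20, adjusted p = 0.279). Of the windows of its transcript, 14.5% also occur in Gm7049 or Gm7329. Pnpla3 (NCBI Gene 116939, chr15:84167816-84189521, plus strand) had 0.158 to 1.07 CPM in sham and 0.369 to 1.12 CPM in CLP, from 5 to 39 reads per mouse. It was the only member with a higher mean in CLP, and its log2 difference of 0.37 (standard error 0.53, 95% interval -0.79 to 1.52, adjusted p = 0.656) was within the spread of the mice.

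**Figure D2:**
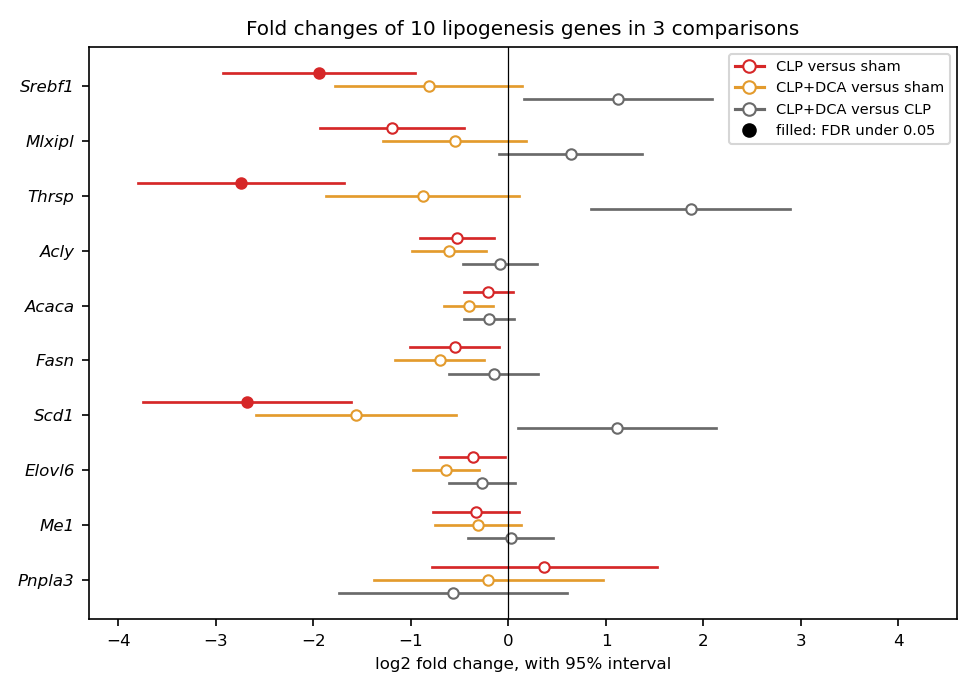
Log2 fold change of each gene (horizontal axis) with its 95% interval in each of the 3 comparisons, from 1 edgeR fit of all 12 mice, with filled symbols at an FDR under 0.05. The 3 filled points are Srebf1, Thrsp and Scd1 in CLP versus sham, at -1.94, -2.75 and -2.68, and the intervals of Acly, Acaca and Fasn in that comparison lie between -1.01 and 0.05.

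The 3 calls depended on which mice entered the fit. With any 1 of the 4 sham mice or of CLP replicates 1, 2 and 4 left out, 0 of the 10 passed, with adjusted p of 0.0566 to 0.0845 for Thrsp and 0.0585 to 0.0830 for Scd1, while the log2 fold change of Scd1 was at most -2.31 and that of Thrsp at most -2.54. Few genes were called at all in these fits, 10 to 79 of 13308 to 13356, so that the loss of calls was not particular to the 10. Without CLP replicate 3, Thrsp, Scd1 and Srebf1 were called lower as in the main fit, against 3.26% of all genes called lower. That fit called 990 of 13274 genes in either direction. Srebf1 was also lost without CLP+DCA replicate 1 or 2 (adjusted p of 0.0618 and 0.0650), with library size alone (0.0545) and without the filter (0.0657), and over all 24 alternatives its log2 fold change ran from -2.26 to -1.73. With the replicate number as a block, Thrsp and Srebf1 were lost and Scd1 was kept, and 46 of 13190 genes were called. Without CLP+DCA replicate 3, 6 passed, all lower, against 11.5% of all genes called lower in that fit and 1.14% in the main fit. This mouse enters the comparison only through the shared spread, the scaling and the filter. The 6 were Thrsp, Scd1, Srebf1, Mlxipl (adjusted p = 0.00911), Acly (0.0386) and Fasn (0.0430). DESeq2 on all 12 mice called 5, against 6.09% of its genes called lower, namely Thrsp, Scd1, Srebf1, Mlxipl and Acly, and on the 8 mice compared it called Fasn as well, against 11.4%.

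The enzyme genes did not keep their proportions to each other. In sham livers 6.37 to 11.9 reads of Scd1 were counted per read of Fasn, and in CLP livers 0.702, 0.736, 5.56 and 1.93. Acly was counted at 0.616 to 0.796 reads per read of Fasn in sham and at 0.641 to 0.896 in CLP, with overlap. Acaca was counted at 0.194 to 0.216 reads per read of Fasn in sham and at 0.230 to 0.310 in CLP, with every CLP mouse above every sham mouse. The ratio of Srebf1 to Fasn was 1.02 to 1.45 in sham and 0.242 to 0.762 in CLP, and that of Thrsp to Fasn was 0.243 to 0.503 and 0.0404 to 0.180, neither with overlap. A ratio of reads within a mouse is free of the library scaling. These ratios were chosen after the values were seen and were not tested.

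**Figure D3:**
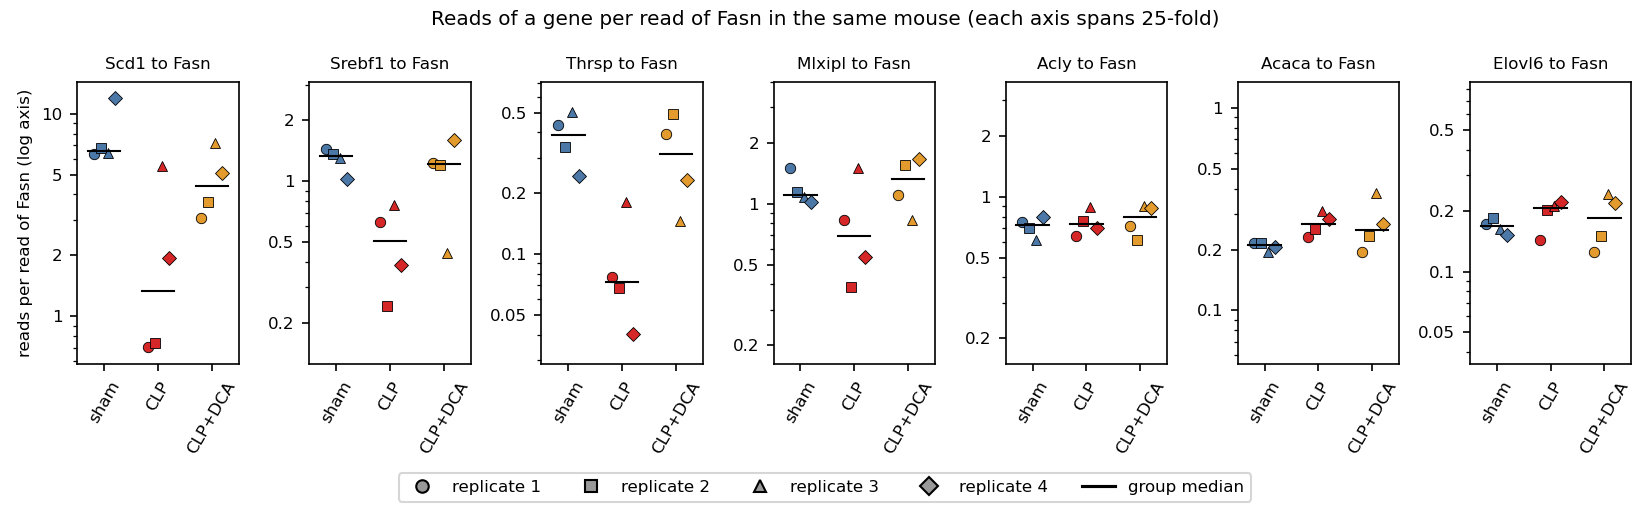
Reads of 7 genes per read of Fasn in the same mouse (log axes of equal span), with the group median as a line. Scd1, Srebf1 and Thrsp per Fasn are lower in all 4 CLP mice than in all sham mice, Acaca per Fasn is higher in all 4 (0.230 to 0.310 against 0.194 to 0.216), Acly per Fasn overlaps across all 3 groups (0.615 to 0.901), and CLP+DCA replicate 3 (triangle) has a Srebf1 ratio of 0.443 and a Scd1 ratio of 7.15.

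Relatives of the 10 genes were measured for comparison, and 11 of 15 passed the filter. Srebf2, which makes the SREBP of cholesterol synthesis, rose from 58.1 to 93.0 CPM in CLP (log2 fold change 0.68, standard error 0.11, adjusted p = 0.0202), and Mlxip, the MondoA gene, rose from 8.54 to 13.2 CPM (0.63, standard error 0.14, adjusted p = 0.0432), each with no overlap of the groups. Both paralogues of the lipogenic factors were thus higher in the livers in which Srebf1 had fallen and Mlxipl was lower. Elovl5, an elongase of polyunsaturated fatty acids, fell from 201 to 127 CPM (-0.66, standard error 0.15, adjusted p = 0.0475). Mid1ip1, the paralogue and partner of Thrsp, averaged 64.1 CPM in sham and 25.2 CPM in CLP with no overlap (log2 fold change -1.34, standard error 0.44, adjusted p = 0.0868). Scd2, the desaturase of brain and young animals, was scarce at 3.32 to 9.23 CPM in sham and 6.43 to 7.85 CPM in CLP (0.35, standard error 0.35, adjusted p = 0.507). Acacb, the mitochondrial acetyl-CoA carboxylase, had a log2 fold change of -0.69 (adjusted p = 0.112). Elovl2 stood at -1.09 (adjusted p = 0.103), Me2 at 0.56 (0.105), Elovl3 at 0.36 (0.577), Elovl1 at 0.12 (0.419) and Pnpla2 at 0.04 (0.901). Scd3, Scd4, Me3 and Pnpla5 did not pass the filter.

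**Figure D4:**
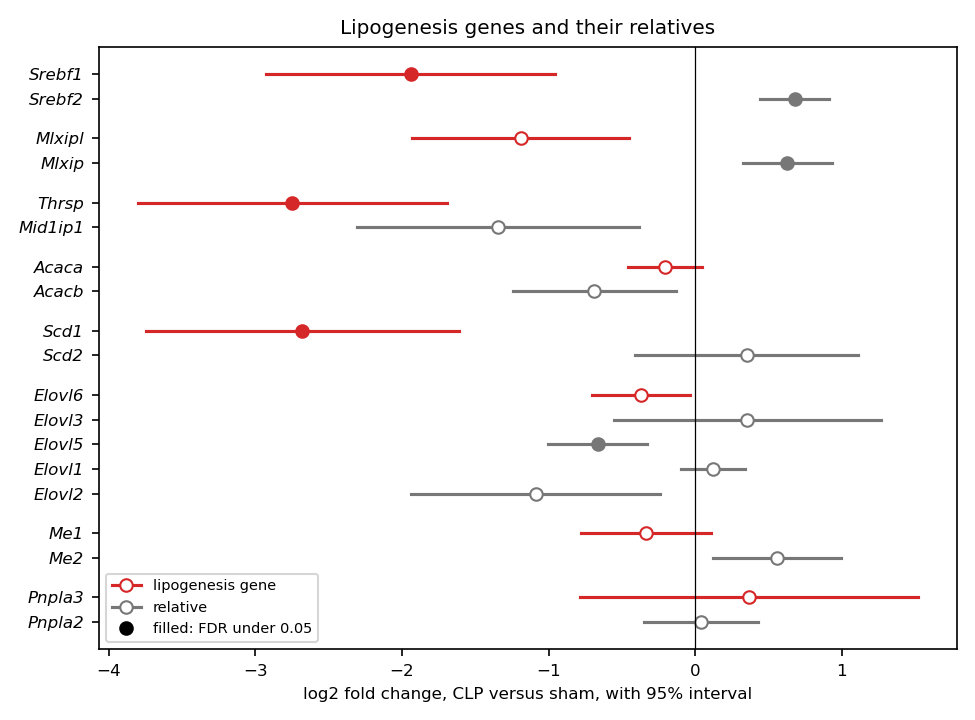
Log2 fold change of CLP versus sham with its 95% interval for the lipogenesis genes and their tested relatives, filled at an FDR under 0.05. Srebf2 (0.68) and Mlxip (0.63) lie to the right of 0 and Srebf1 (-1.94) and Mlxipl (-1.19) to the left.

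Of 30 genes around lipogenesis, which supply its carbon and NADPH or activate, desaturate, elongate and esterify fatty acids, 22 had a lower mean in CLP, 5 were called lower, against 1.14% of all genes, and 0 higher, with a median log2 fold change of -0.44 beside 0.02 over all genes. The 5 were Tkt, transketolase of the pentose phosphate pathway (-0.73, adjusted p = 0.0201), Slc25a1, the mitochondrial citrate carrier (-0.46, adjusted p = 0.0414), Elovl5, Pklr, the liver pyruvate kinase and a ChREBP target (-0.67, adjusted p = 0.0479), and Khk, ketohexokinase (-0.67, adjusted p = 0.0491). G6pdx, the entry enzyme of the pentose phosphate pathway and a source of NADPH, was named after its values were seen, since it lay in the other direction with no overlap, at 2.48 to 3.80 CPM in sham and 4.23 to 6.75 CPM in CLP (0.76, standard error 0.23, adjusted p = 0.0756). Acss2, which activates acetate, had no overlap (-1.12, standard error 0.37, adjusted p = 0.0870). Without CLP+DCA replicate 3, 14 of the 30 were called lower, against 11.5% of all genes, and 1 higher, an alternative for the lists that was added after the data had been seen.

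Of 36 genes that regulate lipogenesis, 20 had a lower mean and 16 a higher. Srebf2 and Mlxip were the 2 called, both higher, against 1.64% of all genes, and 0 were called lower, against 1.14%. Without CLP+DCA replicate 3, 8 were called lower and 3 higher, against 11.5% and 12.2% of all genes. Insig2, which holds SREBP precursors in the endoplasmic reticulum and is induced by fasting, had 82.8 to 104 CPM in sham and 109.6 to 331 CPM in CLP with no overlap (1.06, standard error 0.32, adjusted p = 0.0756). Insig1, itself an SREBP target, stood at -0.62 (standard error 0.24, adjusted p = 0.117). Nr1h3, the LXRα gene, stood at -0.25 (adjusted p = 0.317), and Pparg at -0.76 (adjusted p = 0.0685). Among 16 genes that fasting is known to move, 11 had a higher mean and 1 was called, lower, against 1.14% of all genes. It was G6pc, the glucose-6-phosphatase that fasting raises, which fell (-1.42, standard error 0.30, adjusted p = 0.0404). Angptl4 (1.25, adjusted p = 0.0516) and Pdk4 (4.03, standard error 1.14, adjusted p = 0.0695), which fasting also raises, were higher without passing. Pdk4 was at 151 CPM in CLP replicate 3 and at 2.67 CPM in CLP replicate 1, against 2.57 to 3.01 CPM in sham, and without CLP replicate 3 its log2 difference was 1.85 (adjusted p = 0.124). Angptl4 was then called (1.25, adjusted p = 0.0496). Without CLP+DCA replicate 3, 1 of the 16 was called lower and 4 higher, against 11.5% and 12.2% of all genes.

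The comparison of CLP+DCA with CLP asked what DCA did to these genes in septic mice over 6 hr. No member passed the FDR in either direction in edgeR's test, against 0.00758% of all genes called higher and 0 called lower. The 3 members with an unadjusted p under 0.05 were all higher, Thrsp, Srebf1 and Scd1, against 5.06% of all genes. This comparison and that of CLP with sham share the CLP mice, so that a low CLP value enters both. No member's groups were separate, against 2.32% of all genes with every CLP+DCA mouse above every CLP mouse. The median log2 fold change over the 10 was -0.03, beside 0.01 over all genes.

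Thrsp had 84.7, 77.9, 16.8 and 36.9 CPM in CLP+DCA. Replicates 1, 2 and 4 were above all 4 CLP mice, replicates 1 and 2 were within the range of sham, and replicate 3 was within that of CLP. The mean was 3.65-fold that of CLP (log2 fold change 1.87, standard error 0.47, 95% interval 0.84 to 2.89, adjusted p = 0.244 in edgeR's test). DESeq2 called Thrsp and no other member, with an adjusted p of 0.00768 on all 12 mice, where 0.473% of its genes were called higher, and of 0.0291 on the 8 mice compared, where 0.315% were. Its log2 fold changes were 1.87 and 1.88.

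Srebf1 had 266, 189, 51.3 and 256 CPM in CLP+DCA, so that replicates 1, 2 and 4 lay between the CLP and the sham mice and replicate 3 below all but 1 of the CLP mice. The log2 fold change from CLP was 1.12 (standard error 0.44, 95% interval 0.16 to 2.08, adjusted p = 0.437). Mlxipl had 238, 245, 95.8 and 265 CPM, with the same 3 mice between the groups (0.64, standard error 0.34, adjusted p = 0.552). Scd1 had 660.1, 580.0, 828 and 810.2 CPM, which were alike (CV 16.6%), and replicate 3 was the highest of them. For Scd1 the log2 fold change was 1.12 (standard error 0.46, 95% interval 0.10 to 2.13, adjusted p = 0.457), with replicates 3 and 4 above all CLP mice and replicates 1 and 2 below CLP replicate 3.

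The genes of the chain from citrate to stearate did not have higher means in the mice given DCA than in CLP, and none passed the test. Fasn had 215, 158, 116 and 159 CPM, Acly had 155, 97.2, 104 and 140.1 CPM, and Acaca had 41.6, 36.8, 43.9 and 42.6 CPM. No CLP+DCA mouse was above all CLP mice for Fasn, Acaca or Elovl6, and for Acly replicate 1 was, at 155 CPM against at most 143 in CLP. The 95% intervals of the log2 fold change from CLP were -0.61 to 0.30 for Fasn, -0.47 to 0.30 for Acly, -0.46 to 0.05 for Acaca, -0.61 to 0.06 for Elovl6 and -0.42 to 0.46 for Me1. Pnpla3 stood at 0.286 to 0.515 CPM, too few reads to limit a change (-1.74 to 0.60).

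Without CLP+DCA replicate 3, 2 members were called higher than in CLP, Thrsp (log2 fold change 2.16, adjusted p = 0.0205) and Srebf1 (1.44, adjusted p = 0.0281). Mlxipl stood at 0.88 (adjusted p = 0.0688) and Scd1 at 1.04 (adjusted p = 0.206). The means of the remaining 3 mice were 66.5 ± 25.8 CPM for Thrsp, 237 ± 41.6 for Srebf1, 249 ± 13.8 for Mlxipl and 683 ± 117 for Scd1 (SD, n = 3). Over all genes, 616 were called in either direction without this mouse and 1 with it. Fasn moved from -0.15 to -0.02 (adjusted p = 0.949) and Acly from -0.09 to -0.01 (adjusted p = 0.974). Me1, at 129 CPM in replicate 3 and 67.3 to 79.7 in the others, turned from 0.02 to -0.24 (adjusted p = 0.264).

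**Figure D5:**
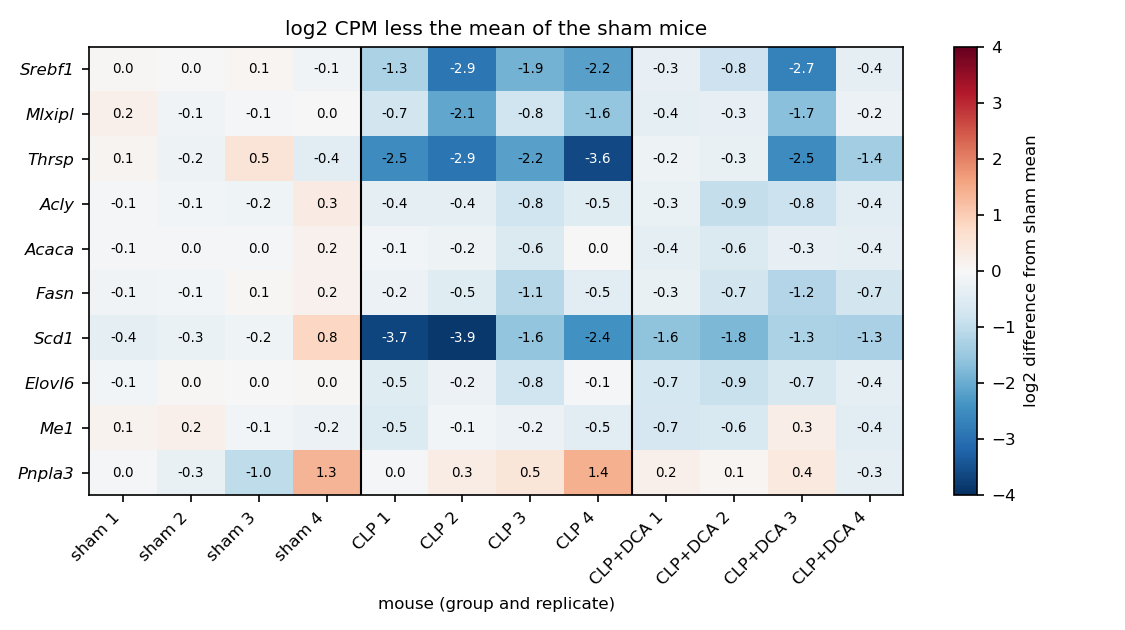
Log2 CPM less the mean of the sham mice for the 10 genes (rows) in the 12 livers (columns), from blue (lower) to red (higher). In CLP+DCA replicates 1, 2 and 4 the Srebf1 and Mlxipl cells are between -0.8 and -0.2 while Scd1 is at -1.8 to -1.3, and in replicate 3 Srebf1 (-2.7) and Thrsp (-2.5) are as low as in CLP.

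The comparison of CLP+DCA with sham asked what remained after DCA. All 10 members had a lower mean in CLP+DCA than in sham, with a median log2 fold change of -0.63 beside 0.01 over all genes, and for 7 of them every CLP+DCA mouse was below every sham mouse, against 4.97% of all genes. Again 0 passed the FDR in edgeR's test, in which 0.00758% of all genes were called lower, and 5 had an unadjusted p under 0.05, against 4.85%: Elovl6, Acaca, Acly, Fasn and Scd1. These 5 are enzymes of the chain from citrate to oleate. DESeq2 on all 12 mice called 3, Scd1, Acly and Elovl6, against 0.567% of its genes called lower, and on the 8 mice compared it called 4, Scd1, Fasn, Acaca and Elovl6, against 0.465%. This comparison and that of CLP with sham share the sham mice, so their values are given side by side and not as a test of each other.

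Elovl6 had the smallest p of the 10, with 26.9, 23.8, 28.0 and 34.5 CPM in CLP+DCA against at least 41.1 CPM in sham. Its log2 fold change was -0.64 (standard error 0.15, 95% interval -0.98 to -0.31, adjusted p = 0.225), beside -0.37 in CLP. Fasn stood at -0.71 (standard error 0.21, adjusted p = 0.269), beside -0.55 in CLP, Acly at -0.61 (standard error 0.17, adjusted p = 0.264), beside -0.53, and Acaca at -0.41 (standard error 0.12, adjusted p = 0.264), beside -0.21. Scd1 stood at -1.56 (standard error 0.47, adjusted p = 0.273), beside -2.68. Srebf1 stood at -0.82 (standard error 0.44, adjusted p = 0.434), Mlxipl at -0.55 (0.33 and 0.479) and Thrsp at -0.88 (0.45 and 0.420). Without replicate 3 these 3 stood at -0.50, -0.31 and -0.58, and Scd1 at -1.64, Elovl6 at -0.64 and Fasn at -0.58, with no member called. Me1 (-0.31, adjusted p = 0.506) and Pnpla3 (-0.21, adjusted p = 0.871) overlapped between the groups.

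None of the genes on the 30-gene list, the regulators and the fasting-responsive genes was called in either comparison of the CLP+DCA mice in edgeR's test of all 12 mice. At an unadjusted p under 0.05, 14 of the 30 genes around lipogenesis were lower than in sham, against 4.85% of all genes, and 1 was higher. Without replicate 3, 10 of the 30 were lower, against 4.07%, and 1 higher. From CLP, 0 were lower and 4 higher, against 5.06% of all genes, and without replicate 3 it was 3 lower and 11 higher, against 14.5% and 13.7%, with 0 called.

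The citrate carrier gene Slc25a1 had the smallest p of the 30 against sham, with 152 to 175 CPM in CLP+DCA and 221 to 262 CPM in sham. Its log2 difference was -0.49 from sham (standard error 0.10, adjusted p = 0.153) and -0.03 from CLP, and without replicate 3 it was -0.44 and 0.02. Tkt was at -0.50 from sham (adjusted p = 0.202) and Acsl5, an acyl-CoA synthetase, at -0.68 (0.225), which became -0.42 and -0.57 without that mouse. Acss2 stood at -1.14 (adjusted p = 0.290), but replicate 3 had 20.3 CPM and the others 59.8 to 92.4, and without it the value was -0.84 (0.237). From CLP, Tkfc, a kinase gene of fructose use, stood at 0.33 (adjusted p = 0.414), Khk at 0.40 (0.437) and Pklr at 0.31 (0.537), and without replicate 3 at 0.36 (0.0929), 0.46 (0.0951) and 0.39 (0.138).

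Of the regulators, Insig2 was at 83.1, 70.7, 151 and 85.6 CPM in CLP+DCA. Replicates 1, 2 and 4 lay below all CLP mice, and replicate 3 was within their range. The log2 difference of Insig2 was -1.003 from CLP (standard error 0.32, adjusted p = 0.375) and 0.06 from sham. Srebf2 stood at -0.42 from CLP (adjusted p = 0.255) and Thra, a thyroid hormone receptor gene, at -0.55 (adjusted p = 0.144), the latter with no overlap. Without replicate 3 these were the 3 regulators called, all lower than in CLP, against 2.63% of all genes, with Insig2 at -1.29 (adjusted p = 0.0397), Srebf2 at -0.48 (0.0331) and Thra at -0.52 (0.0329). From sham, Thra stood at -0.38 (adjusted p = 0.251), Insig1 at -0.83 (0.259), Lpin1, the lipin gene, at 1.21 (0.265) and Nr1h3 at -0.10 (0.805). Lpin1 had 46.5 CPM in replicate 3 and 79.6 to 153 in the others, and without it stood at 1.45 (adjusted p = 0.148).

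Among the fasting-responsive genes, those of glucose output did not pass against CLP, with G6pc at 1.39 (standard error 0.30, adjusted p = 0.178) and Pck1 at 0.69 (0.363). Both were called without replicate 3, at 1.62 (adjusted p = 0.0115) and 0.85 (0.0234), against 2.01% of all genes called higher. Pdk4, a kinase gene of the enzyme family that DCA inhibits, stood at -3.55 from CLP (standard error 1.11, adjusted p = 0.372), at -1.37 (0.478) without CLP replicate 3, and at -4.78 (0.0633) without CLP+DCA replicate 3. From sham the smallest p there were those of Igfbp1 at 2.89 (adjusted p = 0.330), Plin5 at 0.57 (0.341) and Fgf21 at 2.11 (0.397). Igfbp1 was at 39.9, 38.5, 1105 and 49.6 CPM in CLP+DCA and averaged 41.6 in sham. Fgf21 was at 0.479, 0.739, 9.37 and 0.318 CPM, against 0.298 to 1.06 in sham. The 3 mice other than replicate 3 were within the sham range for both, and without it Igfbp1 stood at 0.0337 and Fgf21 at -0.32 from sham, while Fgf21 was called lower than in CLP (-2.43, adjusted p = 0.0402).

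Across the 12 mice the members followed each other to unequal degrees. Pearson's r with the mean of the other 9 was 0.84 for Srebf1, 0.82 for Mlxipl, 0.79 for Scd1, 0.74 for Thrsp, 0.72 for Acly and 0.67 for Fasn, and it was 0.48 for Elovl6, 0.44 for Acaca, 0.15 for Me1 and -0.31 for Pnpla3. Outside the members, the log2 CPM of Gpat4, a glycerol-3-phosphate acyltransferase that starts glycerolipid synthesis, was most like the mean of the 10 over the 12 mice (r = 0.972 of 13180 genes compared). Gm12718 (0.958), Alb (0.956) and Cyp2a4 (0.954) were also among the 5 most alike. Of these, Gm12718 (means of 1.48 CPM in sham and 0.071 in CLP) and Cyp2a4 (0.996 and 0.0417) were close to the limit of detection. The points share the groups and the library scaling, and these r are a description. Gpat4 fell from 223 to 120.1 CPM in CLP (log2 fold change -0.89, standard error 0.17, adjusted p = 0.0325).

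Some of the lipogenesis genes are also expressed in fat. The 8 adipocyte markers summed to 22.4 to 31.7 CPM in sham, 23.4 to 161 in CLP and 16.6 to 46.7 in CLP+DCA, of which Lpl alone gave 125 CPM in CLP replicate 3. Adipoq, which defines fat cells, lay between 0 and 0.89 CPM in the 12 livers. Together the 10 lipogenesis genes took 0.313% to 0.513% of the reads of a sham mouse, 0.0669% to 0.139% of a CLP mouse and 0.130% to 0.190% of a CLP+DCA mouse. These shares are weighted to Scd1, which had 40992 to 130332 reads in a sham mouse, against at most 13619 for any other member. The 31 acute phase genes held 13.4% to 15.6% of all reads in sham, 22.4% to 37.0% in CLP and 17.3% to 35.7% in CLP+DCA. The part of the acute phase genes and of infiltrating cells in the results was not tested, beyond library sizes taken without the acute phase genes, with which Thrsp, Scd1 and Srebf1 were called in CLP versus sham as before.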

How the data were processed

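Poly(A)-enriched liver RNA of 12 mice was sequenced as 100 bp paired ends. The authors aligned the reads to mm10 with STAR 2.5 and deposited raw read counts per gene from featureCounts (Subread 1.5.0-p1, per the labels), with NCBI Gene identifiers and coordinates. The gene annotation and the strand setting are not given in the sources used here. The authors tested genes with DESeq2. Groups and replicate numbers came from the labels, and each mouse was 1 replicate.

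Genes with low counts were removed (filterByExpr with a minimum count of 10), and the counts were scaled by TMM and fitted with a robust quasi-likelihood model to all 12 mice in edgeR 4.0.16 (R 4.3.3), with 3 contrasts at a Benjamini-Hochberg FDR of 0.05 over 13190 genes. "Fell" and "rose" are used of genes past it. CPM use TMM-normalised library sizes, and log2 CPM a prior count of 2. The standard error is the log2 fold change divided by the square root of F, and intervals use the degrees of freedom of the test. Exon lengths are from GENCODE M21. The settings were tested on simulated data. Between 24436513 and 44266819 reads were counted per mouse, so that counting error, a lower limit without molecular identifiers, is small beside the spread of the mice except for Pnpla3.

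Alternatives were DESeq2 1.42.0 on 12 or on the 8 mice compared, edgeR on 8, voom with quality weights in limma 3.58.1, other scalings and filters, a replicate block, an FDR of 0.10 and leaving out each mouse. The list counts without CLP+DCA replicate 3 and without CLP replicate 3 were added after the data had been seen. The members and the gene lists were chosen with earlier results of these data known, and no list was tested as a set. By the naming rule all members and relatives are named, and of each other list the genes past the FDR, the 3 of smallest p, Pklr, Insig1, Insig2, Nr1h3, Slc25a1 and Acss2, with the 5 genes most like the members, and 3 genes under this rule are not reported here. Protein sequences were not used here.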

Additional observations from a re-analysis of the deposited data

Results flagged for a closer look

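In 30 groups of 4 mice (10 genes in 3 groups), 4 held a mouse whose gap to its nearest neighbour, divided by the range of the group, was above Dixon's 95% critical value, where chance gives about 1 in 20. Of these, 3 were the same liver, sham replicate 4. It had the highest Scd1, at 3565.45 CPM with the next at 1758.47. Its Acly stood at 237.702 CPM with the next at 180.008, and its Acaca at 61.4158 CPM with the next at 53.084. With this mouse left out, the log2 fold change of CLP versus sham was -2.31 for Scd1, -0.40 for Acly and -0.15 for Acaca. The remaining mouse was CLP+DCA replicate 3, with the lowest Mlxipl of its group at 95.8396 CPM against 237.904 in the next.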

How the results depend on the processing

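Of the 10 genes, 3 were called in CLP versus sham, 0 in CLP+DCA versus sham and 0 in CLP+DCA versus CLP. DESeq2 on 12 mice called 5, 3 and 1, DESeq2 on 8 mice 6, 4 and 1, and voom 5, 3 and 4. Over all genes, DESeq2 on 12 mice called 1906, 243 and 137, DESeq2 on 8 mice 3422, 169 and 80, and voom 3417, 473 and 1287. In CLP versus sham, edgeR on 8 mice called 5, an FDR of 0.10 called 5 and the replicate block 1. Of all genes in that comparison, edgeR on 8 mice called 2387 of 13079 and the block 46 of 13190. The FDR of 0.10 called at least 1638 of 13190, which is the rank by p of Acly, the last of its 5 members. The main test called 151 lower and 216 higher. With each mouse left out in turn the count ran from 0 to 6 in CLP versus sham, was 0 throughout in CLP+DCA versus sham, and ran from 0 to 2 in CLP+DCA versus CLP. The genes called among all in these fits numbered 10 to 3157, 1 to 11 and 0 to 616, in the same order. The cause of these differences was not tested. Whether the replicate numbers pair the mice is not given in the sources used here. Same-numbered mice of 2 groups had deviations from their group means correlated at -0.46 to 0.55, which in groups of 4 cannot decide it. The block left 0 of the 10 called in both comparisons of CLP+DCA, with 0 of all genes called against sham and 4 against CLP.

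The signs of Thrsp, Scd1, Srebf1, Mlxipl, Acaca and Elovl6 were kept under every alternative in every comparison. Signs turned for 4 genes, none of which was called in the comparison concerned by the test used in the report. In CLP versus sham it was Pnpla3 (without CLP replicate 4, -0.0354, of a range of -0.0354 to 1.16 with 1 mouse left out). In CLP+DCA versus sham it was Pnpla3 (voom 0.21, replicate block 0.0614, and -0.49 to 0.59 with 1 mouse left out). In CLP+DCA versus CLP it was Acly (library size alone 0.0498, voom 0.0368, and -0.21 to 0.00041 with 1 mouse left out), Fasn (voom 0.0255) and Me1 (voom -0.20, and -0.24 to 0.12 with 1 mouse left out). Library size alone moved the median of all genes to -0.15 in CLP versus sham and 0.12 in CLP+DCA versus CLP, and library sizes without acute phase genes moved it to 0.14 in CLP versus sham and 0.12 in CLP+DCA versus sham. Depth limits Pnpla3, at 5 to 39 reads.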
